A study of Mus musculus with 17 samples.

Results

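Scn4b, Gja1, Gja5, Gjc1, Hcn2 and Hcn4 are 6 of the 21798 genes listed for mouse left ventricle in this series, and were chosen by symbol as cardiac sodium channel, pacemaker channel and connexin genes. All 6 were among the 16218 genes tested. Messenger RNA was sequenced from the left ventricular apex of male C57Bl6/J mice aged 7 to 8 weeks at surgery, 3 weeks after transverse aortic constriction (TAC, a band around the aorta that loads the left ventricle with pressure) or a Sham operation. Mice received 6 oral gavages of 50 μg/kg 29P, a prodrug that binds αvβ3 integrin, or saline vehicle (Veh), from 1 week after surgery and over 2 weeks. There were 17 libraries from separate mice, 5 of the Sham Veh group, 3 each of Sham 29P and TAC Veh, and 6 of TAC 29P. No transgene or deletion is named for any group. A TAC Veh library that clustered with Sham had been removed by the submitters before deposit, so the TAC Veh group was in part chosen on expression.

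An action potential in the ventricle opens with a sodium current, carried by pore-forming alpha subunits and tuned by beta subunits such as the product of Scn4b. It passes from cell to cell through gap junctions built of connexins: the product of Gja1 joins working ventricular myocytes, that of Gja5 is known from atrial myocytes, the fast conduction system and arterial endothelium, and that of Gjc1 from nodal and conduction tissue and from vessel walls. HCN channels carry the inward current that paces the sinus node. Hcn4 is the main pacemaker isoform and Hcn2 the main HCN gene of ordinary ventricle.

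The deposited unit was CPM (read counts scaled to a common library total), and the estimated depth was 14.2 to 23.8 M reads per library. Ventricular myocyte markers (7 genes, among them Myl2 and Tnni3) summed to between 30720 and 47480 CPM in every library. Mitochondrial-encoded genes took 29.1 to 38.8% of the signal in Sham Veh, 32.9 to 40.0% in Sham 29P, 23.6 to 27.9% in TAC Veh and 25.1 to 29.4% in TAC 29P. The median of all tested genes stood 0.35 higher on the log2 scale in TAC Veh than in Sham Veh and 0.37 higher in TAC 29P than in Sham 29P, and rescaling by TMM (trimmed mean of log ratios) brought both medians to 0.01. Each member's difference is therefore also read against that shift.

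Libraries S19 and S20 (Sham Veh) and S18 (TAC 29P) stood apart. They carried atrial transcripts: Myl7, the atrial regulatory light chain, reached 335.5 CPM in S18, 894.8 in S19 and 722.9 in S20 against at most 1.002 in the other 14 libraries, and Sln, atrial sarcolipin, reached 161.5, 441.4 and 331.5 against at most 0.63. The 6 atrial markers together summed to 1724 CPM in S18 and to between 2133 and 2668 in S19 and S20, and to no more than 28.7 in the rest. Bmp10, a right atrial gene, was at 514.2 CPM in S18, against 0.18 in S19, 0 in S20 and at most 0.22 in the other 14. The marker sum was at most 4.97 CPM in the remaining Sham Veh libraries and 12.7 to 24.1 in TAC Veh. Most of the TAC Veh sum was 1 gene, Dkk3, at 21.55, 11.25 and 22.66 CPM in S2, S12 and S16. In these TAC Veh libraries Sln was at 0 and Myl7 at no more than 0.24 CPM. Libraries S18, S19 and S20 form the last run, in library order, of nearby animal numbers in the labels. Atrial content and that run therefore cannot be told apart, and results below are given with and without these libraries.

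Promoter sequences are shown for Gja5, the member that separated the atrial libraries, for Scn4b, which was called lower under TMM, and for the HCN pair, which moved together across libraries. They come from RefSeq (GRCm38.p6), run from 250 bases before to 50 after the start site, and exist there for 5 of the 6 members; Gjc1 is the member without one. Capitals mark matches, on either strand, to 6 short motifs, which were TNAAGTG for NKX2-5, AGGTGT for T-box factors, AGATAA for the GATA family, CATTCC for TEAD factors, TGANTCA for AP-1 and GGGCGG for SP1. Windows with each motif made up 11.5%, 13.7%, 11.2%, 14.7%, 7.81% and 35.7%, in that order, of 32851 promoter windows of the same length.
Gja5 (chr3:97032152-97032451, plus strand): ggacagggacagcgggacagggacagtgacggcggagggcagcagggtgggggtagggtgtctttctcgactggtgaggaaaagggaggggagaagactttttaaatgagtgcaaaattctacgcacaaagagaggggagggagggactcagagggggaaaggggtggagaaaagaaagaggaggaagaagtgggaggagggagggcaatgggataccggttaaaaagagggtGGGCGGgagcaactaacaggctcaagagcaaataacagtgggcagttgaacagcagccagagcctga
Scn4b (chr9:45138374-45138673, plus strand): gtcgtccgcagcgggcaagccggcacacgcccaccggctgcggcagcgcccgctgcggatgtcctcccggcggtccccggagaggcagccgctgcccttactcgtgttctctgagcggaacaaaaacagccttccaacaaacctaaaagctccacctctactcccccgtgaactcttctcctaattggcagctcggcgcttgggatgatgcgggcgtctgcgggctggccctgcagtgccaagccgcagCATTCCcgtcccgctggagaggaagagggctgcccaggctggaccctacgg
Hcn2 (chr10:79716384-79716683, plus strand): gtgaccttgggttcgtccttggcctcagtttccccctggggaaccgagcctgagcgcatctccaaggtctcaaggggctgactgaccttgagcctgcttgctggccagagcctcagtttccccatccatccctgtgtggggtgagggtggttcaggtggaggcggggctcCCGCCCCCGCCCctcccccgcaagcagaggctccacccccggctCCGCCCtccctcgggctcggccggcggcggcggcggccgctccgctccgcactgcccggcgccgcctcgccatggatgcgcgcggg
Hcn4 (chr9:58822699-58822998, plus strand): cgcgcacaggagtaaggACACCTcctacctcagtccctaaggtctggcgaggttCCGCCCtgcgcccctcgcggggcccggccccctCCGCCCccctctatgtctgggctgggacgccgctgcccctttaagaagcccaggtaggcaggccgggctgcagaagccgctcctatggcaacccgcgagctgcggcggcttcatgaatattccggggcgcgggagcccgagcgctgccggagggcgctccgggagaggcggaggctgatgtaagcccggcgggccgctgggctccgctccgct
Gja5 held 1 SP1 match, 17 bases before its RefSeq start, and Scn4b 1 TEAD match that began 1 base before its own. These starts differ from the GENCODE gene starts given below for Scn4b, Gja5 and Hcn4. The Scn4b window runs across its GENCODE gene start at 45138395, and the Gja5 window lies inside the gene that begins at 96904693. The Hcn4 window ends before its gene start at 58823412. Other start sites of these genes are not shown. Hcn2 and Hcn4 both held SP1 matches, 3 and 2 respectively, and were rich in G and C at 72.3% and 71.7% against a median of 52.7% over all windows. Hcn4 alone of the 4 held a T-box match, 233 bases upstream. No match overlapped another, and a match describes letters, not a site in use. Gja1, not printed, held 1 GATA and 1 AP-1 match.

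Per kilobase of exon, Gja1 was the most abundant member by a wide margin and Hcn4 and Gja5 the least. Mean CPM per kb over all 17 libraries was 38.0 ± 8.25 (SD) for Gja1, 5.15 ± 1.08 for Gjc1, 4.47 ± 1.52 for Scn4b, 3.39 ± 1.15 for Hcn2, 1.67 ± 1.39 for Gja5 and 1.01 ± 0.378 for Hcn4. Gja1 was above every other member in 17 of 17 libraries. Neighbours in the order overlapped: Scn4b was above Gjc1 in 6 of 17 libraries, and Gja5 above Hcn4 in 11 of 17, with Gja5 the lower of the pair on average in Sham 29P. Under coding length in place of exon length, Gja1 stayed first and Hcn4 last, but Scn4b (coding length 0.684 kb of 4.98 kb exon) moved up to rank 2 and Gja5 to rank 4. The place of Gja1 was the same in every library under both lengths, and the order of the others was not.

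**Figure D1:**
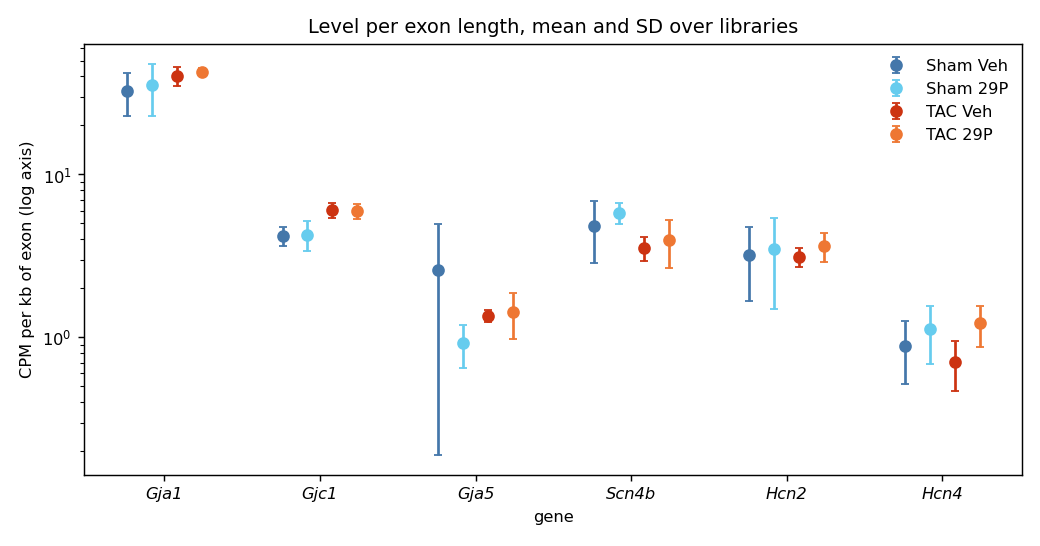
Level of each member in CPM per kb of exon (vertical axis, log scale) by gene and group, as mean and SD over libraries of a group. Gja1 lies near 38.0 CPM per kb and the other 5 members at or below about 6.02, and the long bar of Gja5 in Sham Veh comes from S19 and S20.

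Gja1 (10:56377330-56402513, plus strand, mm10), the main ventricular connexin, was called in none of the comparisons. Its CPM was 447.6, 369.4, 386.5, 253.6 and 210.6 in Sham Veh S5, S6, S13, S19 and S20, and 436.0, 438.5 and 213.2 in Sham 29P S4, S14 and S15. It was 472.3, 402.7 and 365.9 in TAC Veh S2, S12 and S16, and in TAC 29P it ran from 392.1 through a median of 441.6 to 460.2. The low values were thus in 3 Sham libraries, of which S15 carried no atrial signal, while S18 carried it and was high. The TAC Veh minus Sham Veh difference was 0.36 on the log2 scale (SE 0.23, limma adjusted p = 0.25), 0.03 with TMM and 0.04 without the 3 atrial libraries.

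Gjc1 (11:102799579-102819700, minus strand) was the one member called higher after TAC, in both treatment arms. Its CPM was 22.9, 18.5, 21.9, 17.8 and 23.8 in Sham Veh and 33.8, 28.1 and 28.4 in TAC Veh, so that the groups did not overlap. Sham 29P stood at 23.5, 16.3 and 24.2, and TAC 29P between 25.2 and 32.8 with a median of 30.9, again without overlap. The TAC difference was 0.53 (SE 0.15, adjusted p = 0.020) with vehicle and 0.50 (SE 0.14, adjusted p = 0.018) with 29P, as limma fitted across all genes. Exact two-sided permutation of the libraries gave p = 0.036 and p = 0.024, the smallest these group sizes allow. Both the lack of overlap and these p-values are on the deposited scale. How many of all genes did not overlap was not counted. Beside the 1 of 6 members called in each arm, 22.5% of all tested genes were called higher and 1.91% lower in TAC Veh. In TAC 29P it was 31.4% higher and 1.12% lower.

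Relative to the median shift of all genes, little of the Gjc1 difference was left. With TMM it was 0.19 (SE 0.11, adjusted p = 0.27) with vehicle and 0.13 (SE 0.10, adjusted p = 0.41) with 29P, and no longer called in either. TMM called 4.01% of all genes higher and 5.51% lower in TAC Veh, and 5.62% higher and 5.2% lower in TAC 29P. Without the 3 atrial libraries, on the deposited scale, it was 0.51 (adjusted p = 0.043) and 0.55 (adjusted p = 0.015), against 13.4% of all genes called higher and 0.937% lower with vehicle and 30.2% and 1.33% with 29P. The vehicle call was lost without TAC Veh S2 (0.44, adjusted p = 0.13) and the 29P call without Sham 29P S14 (0.32, adjusted p = 0.16). Within runs of animal numbers, TAC Veh was 0.72 above Sham Veh in the first run (1 against 2 libraries) and 0.36 in the second (1 against 1), and TAC 29P 0.39 above Sham 29P in the first (5 against 1). Fitted with a term for these runs, the limma difference was 0.49 (adjusted p = 0.04995) with vehicle, called at the very threshold. With 29P it was 0.45 (adjusted p = 0.10), not called. Marker sums are given on the deposited scale. The 4 genes listed as pericyte markers (Kcnj8, Abcc9, Rgs5 and Pdgfrb) summed to 922.8 to 1259 CPM in Sham Veh and 1247 to 1546 in TAC Veh. The 5 smooth muscle markers summed to 173.5 to 457.5 and 254.3 to 385.8. Both pairs of ranges overlapped, and no marker was at 0. Over the same groups endothelial markers (6 genes) ran from 548.0 to 927.6 in Sham Veh and from 904.8 to 1178 in TAC Veh, and fibroblast markers (6) from 689.6 to 1175 and from 1292 to 1784. Macrophage markers (5) ran from 65.95 to 94.6 in Sham Veh and from 129.8 to 220.4 in TAC Veh, red blood cell genes (5) from 1018 to 2463 and from 3082 to 4992, and nerve markers (5 of 6 in the file) from 5.68 to 11.8 and from 5.76 to 6.24. Their part in the Gjc1 result was not tested. In bulk tissue, fewer or more cells of a type and less or more RNA per cell cannot be told apart.

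**Figure D2:**
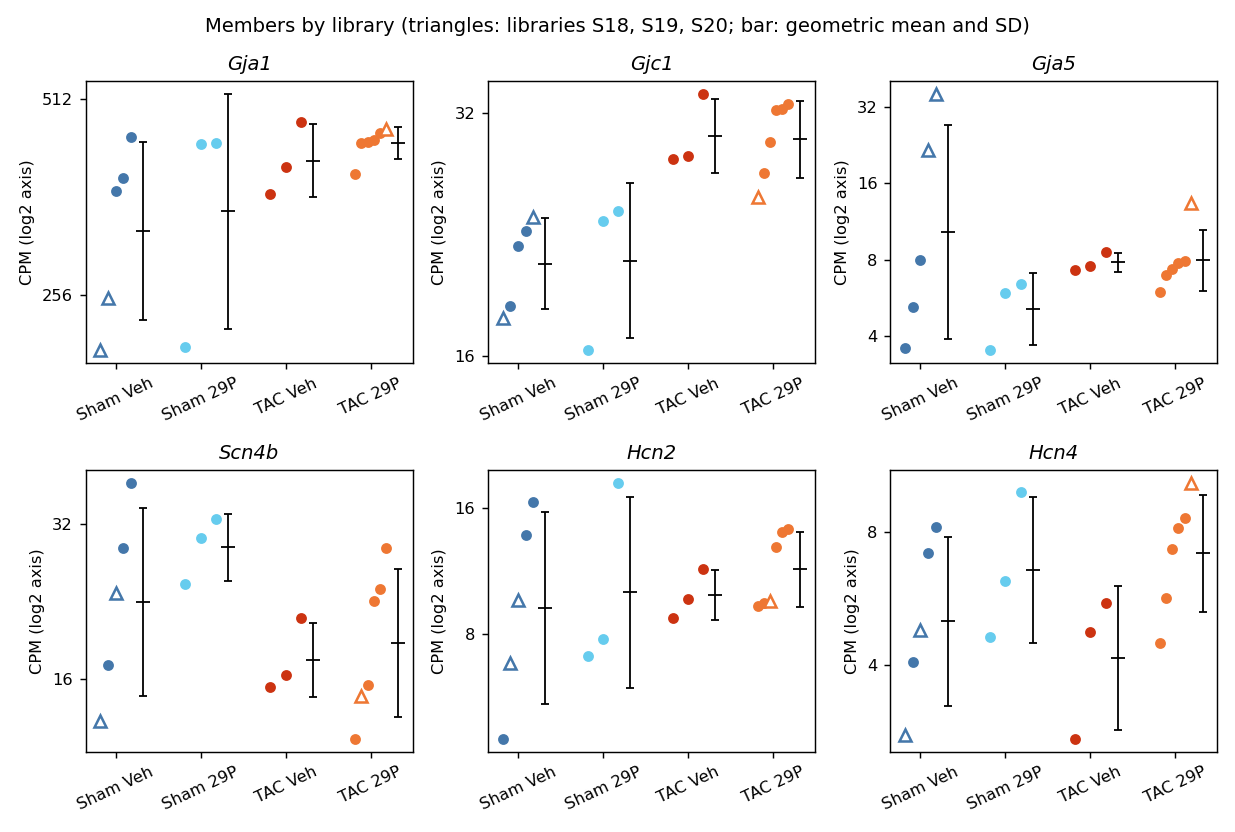
CPM of the 6 members (vertical axes, log2 scale) in each of the 17 libraries by group, with the geometric mean and SD of log2 CPM beside each group and open triangles for libraries S18, S19 and S20. Gjc1 separates TAC from Sham in both arms, Gja5 is highest in the 3 triangles, and the other members overlap between Sham and TAC.

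Gja5 (3:96904693-97077416, plus strand) was highest in the 3 libraries with atrial transcripts, and overlapped between Sham and TAC elsewhere. It reached 36.0 CPM in S19, 21.6 in S20 and 13.3 in S18, against 3.52 to 8.58 in the other 14 libraries. The other Sham Veh libraries were at 5.22, 3.58 and 7.95 CPM, and Sham 29P at 6.41, 3.52 and 5.92. TAC Veh stood at 8.58, 7.58 and 7.30 CPM, and the TAC 29P values ran from 5.96 through a median of 7.57 to the 13.3 of S18. The TAC Veh minus Sham Veh difference was -0.40 (SE 0.53, adjusted p = 0.58) over all libraries and 0.56 (SE 0.27, unadjusted p = 0.057, adjusted p = 0.15) without the 3, so that its direction rested on them. With 29P the TAC difference was 0.64 (SE 0.52, adjusted p = 0.35) over all libraries, with 5 of 6 TAC 29P libraries above all of Sham 29P (exact two-sided permutation p = 0.048), and 0.49 (SE 0.24, adjusted p = 0.13) without the 3. With TMM these TAC differences were -0.73 with vehicle and 0.27 with 29P, neither called. The 29P difference in Sham shrank likewise, from -1.01 (SE 0.53) to -0.050 (SE 0.27). Arterial endothelial markers (7 genes, among them Efnb2 and Dll4) summed to 90.1 to 135.0 CPM in the Sham Veh libraries without atrial signal and to 137.5 to 176.6 in TAC Veh, and their part in the Gja5 values was not tested. The Gja5 locus overlaps Gpr89 on the opposite strand, which averaged 14.4 CPM. Whether the counting used strand is not given in the sources used here, so reads of the overlap cannot be assigned with certainty.

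**Figure D3:**
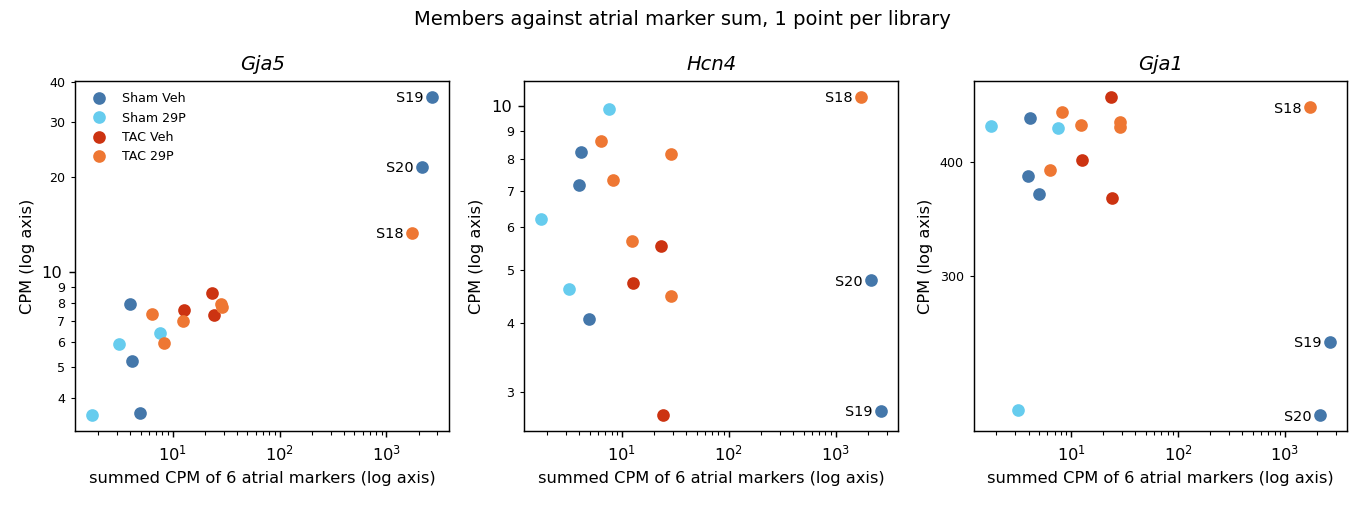
CPM of Gja5, Hcn4 and Gja1 (vertical axes, log scale) against the summed CPM of 6 atrial markers (horizontal axis, log scale), with 1 point per library coloured by group. S18, S19 and S20 lie apart at 1724 to 2668 CPM of atrial markers, where Gja5 is highest, while Hcn4 and Gja1 each have 1 of these libraries at or near the top and another at or near the bottom.

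Scn4b (9:45138395-45154152, plus strand), the beta 4 subunit that associates with the cardiac sodium channel, had lower values after TAC in both arms, but was not called on the deposited scale. Sham Veh stood at 28.7, 17.1, 38.5, 13.3 and 23.4 CPM and TAC Veh at 16.3, 21.0 and 15.4, inside the Sham Veh range. Sham 29P stood at 32.7, 29.96 and 24.4 CPM and TAC 29P ran from 12.2 through a median of 19.1 to 28.7, with 5 of its 6 libraries under the lowest Sham 29P value. The difference was -0.37 (SE 0.30, adjusted p = 0.35) with vehicle and -0.62 (SE 0.29, unadjusted p = 0.050, adjusted p = 0.11) with 29P. The vehicle difference was -0.18 without Sham Veh S13, -0.57 without Sham Veh S19 and -0.61 (adjusted p = 0.17) without the 3 atrial libraries, called in none of these fits.

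With TMM, Scn4b was -0.71 (SE 0.29, unadjusted p = 0.025, adjusted p = 0.13) with vehicle and -0.98 (SE 0.28, adjusted p = 0.033) with 29P, the latter called lower. Leaving out the 3 atrial libraries under TMM as well gave -0.94 (adjusted p = 0.074) and -0.92 (adjusted p = 0.039). Scn4b was the only member to move against the median of all genes far enough to be called, and only under rescaling (TMM or median-of-ratios) and in the 29P arm. The Scn4b difference of TAC Veh from Sham Veh was -0.44 in the first run of animal numbers and -0.87 in the second, and that of TAC 29P from Sham 29P was -0.73 in the first.

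Hcn2 (10:79716634-79736108, plus strand), the HCN gene of working ventricle, spread widely within Sham and was called in no comparison. It was at 16.5, 4.52, 13.8, 6.84 and 9.64 CPM in Sham Veh and at 18.4, 7.82 and 7.10 in Sham 29P. TAC Veh was narrow at 9.73, 11.4 and 8.74 CPM, inside the range of Sham Veh, and TAC 29P ran from 9.36 through a median of 11.3 to 14.3. The TAC Veh minus Sham Veh difference was 0.10 with a 95% interval of -0.66 to 0.85, which leaves room for a change of either sign.

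Hcn4 (9:58823412-58863175, plus strand), the sinus node isoform, gave the largest difference between 29P and vehicle under TAC among the members. TAC Veh stood at 5.54, 4.74 and 2.72 CPM, and TAC 29P ran from 4.48 through a median of 7.75 to 10.4, with 5 of 6 libraries above all of TAC Veh. Sham Veh was at 8.24, 4.07, 7.18, 2.77 and 4.80 CPM and Sham 29P at 9.87, 6.20 and 4.63. The difference under TAC was 0.79 (SE 0.34, unadjusted p = 0.034), with a limma adjusted p = 1 over all genes, and so was not called. The exact two-sided permutation p was 0.095, where 0.024 is the smallest possible. At the unadjusted threshold 1.05% of all genes were higher and 0.931% lower in this comparison beside the 1 of 6 members.

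The Hcn4 difference was 0.68 (unadjusted p = 0.0496) without the 3 atrial libraries and 0.81 (unadjusted p = 0.019) with TMM. It dropped to 0.54 (unadjusted p = 0.19) once the fit held a term for the animal number runs, and to 0.27 in the first run alone (5 against 1 library). Of 17 fits that each left out 1 library, 13 kept an unadjusted p of 0.05 or less; without TAC Veh S16 the difference was 0.49 (unadjusted p = 0.22), without S18 0.68 (0.069), without S1 0.74 (0.059) and without S9 0.75 (0.056). S18, which held the highest Hcn4 value, was also the library with the most Shox2 (5.66 CPM against at most 2.19 in the 14 libraries without atrial signal) and Cntn2 (15.98 against at most 8.02), genes of the sinus node and the fast conduction system. Other genes of the conduction list went the opposite way: Irx3 was at 8.69 CPM in S18 against 19.2 to 27.3 in the rest of TAC 29P, and Prox1 at 35.6 against 55.3 to 64.5. Of the 14 listed genes in the file, S18 was above all other TAC 29P libraries in 7 and below all of them in 4. In how many of all genes S18 stood outside the others was not counted, so these counts give no result about the list. The part of the listed genes in the Hcn4 value was not tested.

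No other member passed the unadjusted threshold between TAC 29P and TAC Veh. Differences were 0.089 for Gja1, 0.028 for Gja5, -0.014 for Gjc1, 0.20 for Hcn2 and 0.11 for Scn4b, and the 95% interval of Gjc1, the tightest, was -0.31 to 0.29. Between Sham 29P and Sham Veh 0 of 6 members passed even the unadjusted threshold, at which 1.6% of all genes were higher and 5.89% lower. In the test of whether the TAC difference itself changed with 29P, 0 of 6 members passed, adjusted or at an unadjusted p of 0.05. The share of all genes that passed in that test was not counted. These comparisons share control libraries, and p-values rest on the spread between mice of a group.

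**Figure D4:**
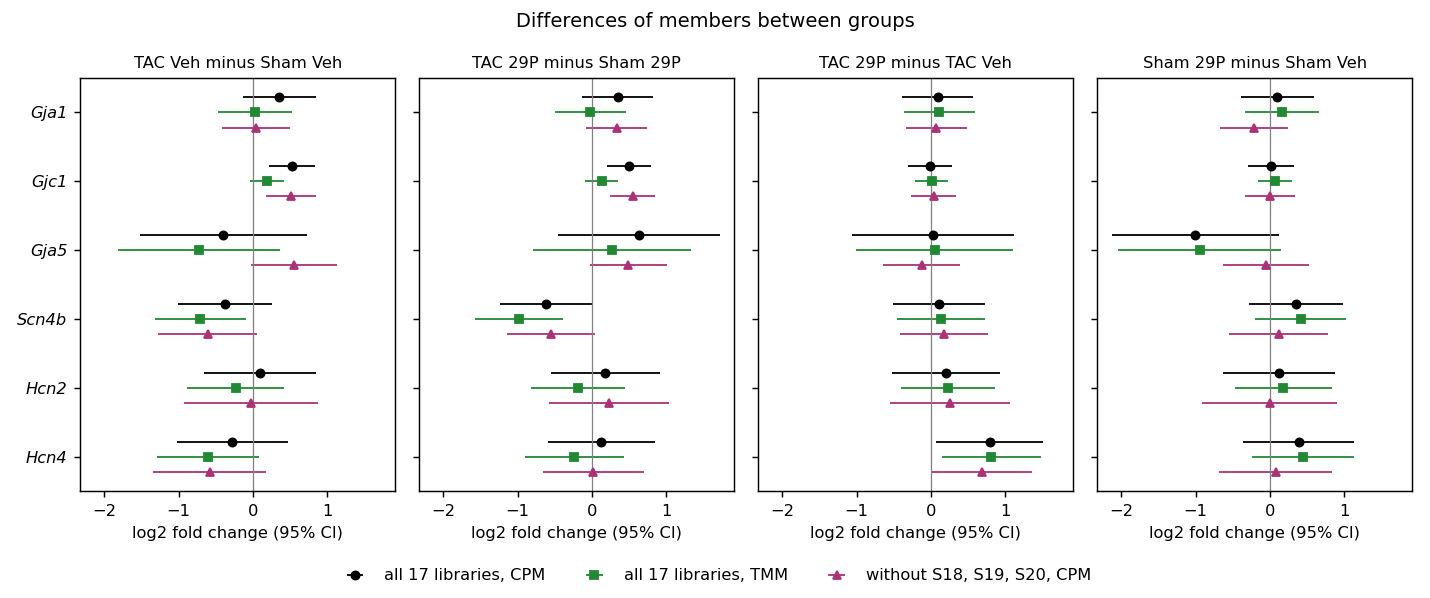
Log2 fold change and 95% confidence interval of each member (horizontal axis) in 4 comparisons, for all 17 libraries on the deposited CPM (circles), with TMM (squares) and without S18, S19 and S20 (triangles). Gjc1 is clear of 0 in both comparisons of TAC with Sham except with TMM. In these comparisons Scn4b lies further below 0 with TMM than in the other fits shown. Gja5 changes sign in TAC Veh minus Sham Veh when the 3 libraries are left out.

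Across the 17 libraries, described without a test since libraries share treatment and depth, Hcn2 and Hcn4 tracked each other. Pearson r of log2 CPM was 0.65, and 0.69 over the 14 libraries without atrial signal. The HCN pair was not alone. After group means were subtracted over the 14, its r was 0.74, beside 0.60 for Scn4b with Hcn2 and 0.60 for Gja1 with Hcn4. Gja5 and Gjc1 had r near 0 over all libraries and 0.83 over those 14, which was 0.46 after group means were subtracted. Of the 14054 genes compared, Hcn4 was most like Sox6 (r = 0.87), Heatr5b (0.87) and Sh3rf2 (0.83), and Hcn2 most like Mmab (0.91), Wdtc1 (0.91) and Lynx1 (0.91). Gjc1 was most like Fes (0.97), Daxx (0.97) and Cul7 (0.97), and kept r of 0.94, 0.91 and 0.89 after group means were subtracted. All r in this paragraph use deposited CPM without rescaling. Gjc1 was lowest in S14 (16.3 CPM) and highest in S2 (33.8). These libraries also had the lowest and highest TMM factors (0.762 and 1.21), and the part of library scale in r was not tested. Gja1 was most like Lurap1l (0.945), Cmah (0.94) and Aspm (0.92). Gja5 was most like Plekha7 (0.93), Slc17a7 (0.93) and Lad1 (0.93), which were 0.81, 0.85 and 0.79 over the 14 libraries. Scn4b was most like Hibadh and Acad11, enzymes of amino acid and fatty acid breakdown, with r of 0.85 each, and Gm16793 (0.85).

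The other genes of these pathways gave the context in which the members moved. Of 76 listed genes, 63 were in the file and 54 were tested, and in TAC Veh minus Sham Veh 14 were called higher and 4 lower on the deposited scale, against 3 and 6 with TMM. That is 25.9% higher and 7.41% lower, beside 22.5% and 1.91% of all genes, and with TMM 5.56% and 11.1% beside 4.01% and 5.51%. Without the 3 atrial libraries it was 7 and 1 (12.96% and 1.852%, beside 13.4% and 0.937% of all genes). In TAC 29P minus Sham 29P it was 11 and 3 (20.4% and 5.56%, beside 31.4% and 1.12% of all genes). With TMM it was 4 and 4 there (7.41% each, beside 5.62% and 5.2% of all genes). TAC 29P minus TAC Veh gave 0 calls. At an unadjusted p of 0.05, 2 of the 54 were higher and 1 lower there, beside 1.05% and 0.931% of all genes.

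Among sodium channel alpha subunits, 2 of 6 tested were higher in TAC Veh, with a list median of 0.45 against 0.35 for all genes. Of all genes 22.5% were called higher and 1.91% lower there. With TMM 0 of the 6 were called, and without the 3 atrial libraries 1 was, higher. Scn7a, a sodium-sensing channel, was 0.37 higher (adjusted p = 0.033) and 0.03 with TMM. Of the other 3 beta subunits 2 were called higher, against 1 with TMM and 1 without the 3 atrial libraries. Scn3b, at low level, was 1.33 higher (adjusted p = 0.032) and was not called with TMM (adjusted p = 0.13). Without the 3 atrial libraries Scn7a was 0.43 higher (limma adjusted p = 0.037), called, and Scn3b 0.83 (adjusted p = 0.091), not called. None of 11 sodium channel regulators was called in TAC Veh, with a median of 0.23, but 1 was lower there with TMM. In TAC 29P minus Sham 29P 2 were called higher and 1 lower, beside 31.4% and 1.12% of all genes. The gene lower in both was Fgf13, a fibroblast growth factor homologous factor that binds sodium channels, at -0.58 (adjusted p = 0.021) in TAC 29P, and with TMM -0.78 (adjusted p = 0.022) in TAC Veh and -0.94 (adjusted p = 0.0087) in TAC 29P. Cav3, the muscle caveolin, was 0.62 higher (adjusted p = 0.031) in TAC 29P and was not called with TMM. Both were named after their values were seen.

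In TAC Veh 22.5% of all genes were called higher and 1.91% lower, and in TAC 29P minus Sham 29P 31.4% and 1.12%. Of the other HCN channels and partners, 0 of 4 tested were called in TAC Veh. In TAC 29P minus Sham 29P 1 was called, Lrmp, named after its value was seen, which was 1.27 higher (SE 0.36, adjusted p = 0.017) and 1.35 (adjusted p = 0.022) without the 3 atrial libraries, and was not called with TMM. Hcn3 was too low to be tested, at no more than 0.24 CPM in any library.

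Other connexins and pannexins had 3 higher and 1 lower of 6 tested in TAC Veh, beside 22.5% and 1.91% of all genes. The counts were 1 and 2 with TMM (4.01% and 5.51% of all genes). Without the 3 atrial libraries they were 1 and 0 (13.4% and 0.937% of all genes). Panx1, a large-pore channel that is no connexin, rose from 2.28 ± 0.527 CPM (SD, n = 5) to 9.33 ± 3.01 (n = 3), a difference of 2.01 (SE 0.26, adjusted p = 0.0005), and 1.67 with TMM (adjusted p = 0.0011). Gja4, a connexin of arterial endothelium, was 0.67 higher (SE 0.23, adjusted p = 0.042), and 0.34 with TMM (adjusted p = 0.24). Gjc3 was -1.67 (adjusted p = 0.034, with TMM 0.027) at a low level, 0.38 to 1.03 CPM in Sham Veh and 0.11 to 0.25 in TAC Veh. In TAC 29P minus Sham 29P it was -0.047 (adjusted p = 0.95). Without the 3 atrial libraries Panx1 in TAC Veh stayed called (2.2, limma adjusted p = 0.0025). Gja4 (0.67, adjusted p = 0.092) and Gjc3 (-1.61, adjusted p = 0.075) did not.

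Junction partners, which hold gap junctions and desmosomes in the intercalated disc, had 6 higher and 1 lower of 11 in TAC Veh. Of all genes 22.5% were higher and 1.91% lower there. The counts were 1 and 1 with TMM (4.01% and 5.51% of all genes). Without the 3 atrial libraries they were 3 and 0 (13.4% and 0.937% of all genes). Des, desmin, rose from 1020 ± 143.4 to 2121 ± 413.2 CPM (1.05, SE 0.17, adjusted p = 0.0016) and was called with TMM. Jup, plakoglobin, was 0.74 higher (adjusted p = 0.045), not called with TMM. Dsg2, the desmosomal cadherin, fell from 66.9 ± 7.50 to 47.3 ± 4.65 CPM (-0.50, SE 0.15, adjusted p = 0.027), and -0.83 with TMM (adjusted p = 0.0054).

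Conduction system factors and markers had 1 higher and 2 lower of 13 in TAC Veh, and 0 and 2 with TMM. Hopx, a homeodomain protein of the conduction system and myocyte, fell from 185.0 ± 16.8 to 94.0 ± 20.9 CPM (-0.997, SE 0.15, adjusted p = 0.0011), and was also lower in TAC 29P (-0.62, adjusted p = 0.0073). Tbx5 was -1.15 (SE 0.32, adjusted p = 0.018), and -0.78 (adjusted p = 0.063) without the atrial libraries, which had 28.5 to 29.4 CPM of it against at most 19.9 elsewhere. Tbx2 was 0.90 higher (adjusted p = 0.048) and not called with TMM (adjusted p = 0.18). Without the atrial libraries Hopx in TAC Veh was -0.96 (limma adjusted p = 0.0071), called, and Tbx2 0.87 (adjusted p = 0.10), not called.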

How the data were processed

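RNA was polyA-selected with NEBNext Ultra II and sequenced; per the submitters' processing notes and methods, alignment was to mm10, by STAR (version 2.3.7) run within Partek Flow. The counter, its strand setting and its filters are not given in the sources used here. The authors deposited CPM (read counts scaled to a common total) with 1e-04 added to every value, for 21798 genes in 17 libraries, and 16218 genes with CPM of at least 0.5 in at least 3 libraries were tested. Whole reads could not be recovered from these values, so no count test was run, and depth was estimated from the step between low values.

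Groups came from the labels. limma 3.58.1 (R 4.3.3) with a mean-variance trend was fitted to log2 CPM of all 17 libraries with 4 group means (13 residual degrees of freedom), and a call is a Benjamini-Hochberg adjusted p of at most 0.05 over all tested genes. For single members, an exact permutation test of the libraries (two-sided, scipy 1.17.1) was added. TMM trimmed 30% of log ratios and 5% of mean levels. The fit was tested on simulated data. Coordinates and lengths are GENCODE vM21, and the deposited stop is 1 base past its end. Runs of animal numbers are groups of nearby numbers, with gaps, in the labels. They were drawn from the numbers alone, and the labels do not call them batches.

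The members and lists were chosen with earlier results of these data known. Named genes were all members, the 3 most correlated genes of each by log2(CPM + 0.1) at a mean CPM of at least 1, the 2 highest and 2 lowest called genes of each list in TAC Veh minus Sham Veh, and Hcn3 and Gja4; some genes that this rule would name are not reported here, though the list counts and medians include them. Leaving out S18, S19 and S20 was chosen after seeing the data. Marker lists of atrial and ventricular myocytes and of 8 other cell types are given as summed CPM on the deposited scale.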

Additional observations from a re-analysis of the deposited data

Results flagged for a closer look

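Of 12 sets tested (6 members in Sham Veh and in TAC 29P), 2 held a library apart from the others by Dixon's criterion on log2 CPM, where chance gives about 1 in 20. Gja1 in TAC 29P was 392.1 CPM in S1 against 438.1 to 460.2 in the other 5, a gap of 0.69 of the group's range (limit 0.625). Gja5 in TAC 29P was 13.3 CPM in S18 against 5.96 to 7.94, a gap of 0.64, and S18 is 1 of the 3 libraries with atrial transcripts.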

How the results depend on the processing

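The TAC Veh group has 3 libraries, the low genes Hcn4 and, outside S18, S19 and S20, Gja5 lie near 3 to 10 CPM, and scaling moves the comparisons of TAC with Sham by about 0.35. The number of members called in TAC Veh minus Sham Veh (1) was 0 with TMM, with median-of-ratios factors, with the total without mitochondrial-encoded genes, and with TMM without S18, S19 and S20, and ran from 0 to 1 when single libraries were left out. In TAC 29P minus Sham 29P (1) it was 0 with the total without mitochondrial-encoded genes and with the run covariate, and 0 to 1 when single libraries were left out. In both TMM and median-of-ratios fits the 1 call there was Scn4b, not Gjc1. In TAC 29P minus TAC Veh (0) it was 1 at the unadjusted threshold. The cause of these changes was not tested. No paired analysis was possible because the groups share no replicate numbers.

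Differences that changed sign were uncalled in every fit where they did so (smallest adjusted p = 0.15). With TMM, Hcn2 in TAC Veh was -0.23, and in TAC 29P minus Sham 29P Gja1 was -0.020, Hcn2 -0.19 and Hcn4 -0.24, while Gjc1 in TAC 29P minus TAC Veh was 0.011. With median-of-ratios factors these were -0.23, -0.015, -0.18, -0.23 and 0.0072. With the total without mitochondrial-encoded genes, Hcn2 in TAC Veh was -0.056, Hcn4 in TAC 29P minus Sham 29P -0.051 and Gjc1 in TAC 29P minus TAC Veh 0.0097. With the run covariate, Gja5 was 0.31 in TAC Veh and -0.29 in TAC 29P minus TAC Veh, Gja1 -0.059 there, Hcn4 -0.12 in TAC 29P minus Sham 29P, Gjc1 -0.024 in Sham 29P minus Sham Veh, and the difference of TAC effects was 0.12 for Scn4b, -0.10 for Hcn2 and -0.048 for Hcn4. Without S18, S19 and S20, Gja5 was 0.56 and Hcn2 -0.027 in TAC Veh, Gja5 -0.12 and Gjc1 0.034 in TAC 29P minus TAC Veh, Gja1 -0.22 and Hcn2 -0.0049 in Sham 29P minus Sham Veh, and the difference of TAC effects 0.063 for Scn4b, 0.29 for Gja1, -0.072 for Gja5 and 0.034 for Gjc1. Adding TMM gave Gja1 -0.29, Gja5 0.23 and Hcn2 -0.36 in TAC Veh, Gja1 -0.035, Hcn2 -0.14 and Hcn4 -0.35 in TAC 29P minus Sham 29P, Gja5 -0.10 and Gjc1 0.056 in TAC 29P minus TAC Veh, Gja1 -0.16 and Gja5 0.0082 in Sham 29P minus Sham Veh, and for the difference of TAC effects 0.027 for Scn4b, 0.25 for Gja1 and -0.11 for Gja5.

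Leaving out single libraries gave ranges that crossed 0. In TAC Veh these were -0.78 to 0.053 for Gja5, -0.16 to 0.31 for Hcn2 and -0.49 to 0.029 for Hcn4. In TAC 29P minus Sham 29P they were -0.071 to 0.61 for Hcn2 and -0.13 to 0.42 for Hcn4, and in TAC 29P minus TAC Veh -0.012 to 0.25 for Scn4b, -0.12 to 0.11 for Gja5 and -0.060 to 0.073 for Gjc1. In Sham 29P minus Sham Veh they were -0.075 to 0.45 for Gja1, -0.091 to 0.20 for Gjc1 and -0.31 to 0.37 for Hcn2, and for the difference of TAC effects -0.36 to 0.16 for Gja1, -0.21 to 0.077 for Gjc1 and -0.17 to 0.52 for Hcn2.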
